A study of Caenorhabditis elegans with 24 samples.

Results

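The fbxb and fbxc genes are families of C. elegans genes that encode F-box proteins. The families were chosen with earlier results of these data known, and the members within them by name alone. Members were every gene of the RPKM table called fbxb or fbxc with a number, 1 gene of that pattern excepted. They came to 154 genes, 105 fbxb and 49 fbxc, of 20191 genes in the table. RNA was sequenced from pools of whole worms on day 3 of age, so fewer cells of a type and less RNA per cell cannot be told apart. All worms were fed HT115 bacteria with the empty RNAi vector L4440. The wild type strain (wt) was NV48, isolated from a cross of strains XR1 and GRU102, and it was left untreated (5 libraries) or given 100 µM quercetin, a plant flavonoid (5 libraries), or 100 µM lutein, a plant carotenoid (4 libraries), starting from eggs. The abl-1 KO strain was NV50, isolated from the same cross and carrying the abl-1(ok171) deletion in the gene of the Abl tyrosine kinase, and it was left untreated or given 100 µM quercetin (5 libraries each). The untreated worms of both strains received the solvent. Each genotype was a single strain, so loss of abl-1 and any other difference between these strains cannot be told apart. The RNA-seq methods name NV51 in place of NV50, a strain that also carries a transgene expressing the human Aβ peptide from the unc-119 promoter, and they call NV48 nAD, which is the name they use for the Aβ background. The groups here follow the labels.

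An F-box protein is the part of an SCF ubiquitin ligase that selects the substrate. Its F-box motif binds a Skp1-related adaptor, in worms an SKR protein, which joins it to the cullin CUL-1 and the RING protein RBX-1, and the bound substrate is then marked with ubiquitin and usually degraded by the proteasome. Nematode genomes hold greatly expanded families of F-box genes, among them fbxa, fbxb and fbxc, many of them in tandem clusters on chromosome arms, and most members have no assigned substrate.

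The estimated number of mapped reads was between 27.16 and 45.08 Mreads (megareads) per library (median 33.32 Mreads). The level of abl-1 was 1.71 to 2.14 RPKM in the 10 abl-1 KO libraries and 6.85 to 7.77 RPKM in the 14 wt libraries, so each library matched its genotype label on this measure. Libraries differed most in sperm genes, whose summed level of 38 listed genes was between 4.76 and 638 RPKM. Wt untreated replicate 5 stood apart in the F-box genes. For comparisons that use it, the members' median fold change and count below 0 are given with and without it. Other values include it unless stated otherwise.

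Most of the members lay on 1 chromosome. By the WBcel235 annotation 95 of the 154 were on chromosome II (60 fbxb and 35 fbxc), and 89 of these 95 lay in the first 4 Mb. The other members were on chromosomes IV (21), V (15), I (10), III (8) and X (5). When members no more than 20 kb apart were joined, 116 of the 154 fell into 23 clusters and 38 stood alone. The largest cluster, on chromosome II from 907448 to 1001451, held 20 members, 18 of them fbxc, and the next held 12. The annotation gave 150 members as protein coding and 4 as pseudogenes (fbxb-32, fbxb-36, fbxc-37 and fbxc-38). There were 23 members that overlapped another entry of the annotation. Among them were the 4 pseudogenes, each of which overlapped an entry without a gene name that may be the same gene. No source used here says whether strand entered the counting.

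The members were expressed at low levels in these worms. None was at 0 in every library, 137 were above 0 in every library, and 66 had a mean below 1 RPKM (reads normalized to exon length in kilobases and to the mapped reads of the library). There were 124 members (80.5%; 87 fbxb and 37 fbxc) that reached 0.5 RPKM in at least 4 libraries and were tested, beside 63.3% of the whole table and 79 of 176 genes (44.9%) of the related fbxa family. None of the 124 passed this filter through a single group. The median of the mean level over the tested members was 1.37 RPKM, beside 10.7 RPKM over all 12771 genes tested. Few reads stood behind most values: the median number of estimated reads per library was 53.17 over tested members, and 55 members had under 50. The 30 members not tested had means between 0.0019 and 0.36 RPKM, and 6 of the 154 were at 0 in at least 12 libraries. The lowest of all, fbxb-58 on chromosome X, was above 0 in 1 library.

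A few fbxc genes held much of the families' RNA. Summed over the families, fbxb genes came to 146 RPKM and fbxc genes, 49 genes, to 222 RPKM, and the 5 members with the highest mean, all fbxc, made up 38.6% of the sum. The fbxc gene with the highest mean was fbxc-50 (WBGene00015912, chromosome II from 3246316 to 3248123, minus strand) at 49.3 RPKM. Its level was 50.5 ± 2.96 RPKM (SD, n = 5) in wt untreated, 49.8 ± 2.22 (n = 5) in wt quercetin, 49.8 ± 0.99 (n = 4) in wt lutein, 47.7 ± 4.71 (n = 5) in abl-1 KO untreated and 48.7 ± 5.71 (n = 5) in abl-1 KO quercetin. The next was fbxc-44 (WBGene00015819, chromosome II from 4236504 to 4237751, minus strand) at 41.8 RPKM, and the ranges of these genes overlapped (40.4 to 54.2 RPKM for fbxc-50 and 37.1 to 48.2 RPKM for fbxc-44). Then came fbxc-32 (18.2 RPKM), fbxc-45 (16.8) and fbxc-47 (16.1), whose ranges over the libraries overlapped one another and lay wholly below that of fbxc-44. The sixth, fbxc-52, had a mean of 9.38 RPKM (7.40 to 11.3), and its range lay wholly below that of fbxc-47 (14.1 to 19.4). Between fbxc-44 and its neighbour fbxc-43, 507 bp apart by the annotation and on the same strand, the mean levels were 41.8 and 1.04 RPKM.

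The fbxb genes had no member at such levels. The highest was fbxb-7 (WBGene00012492, chromosome V from 17377406 to 17379233, plus strand) with a mean of 5.33 RPKM and a range of 3.77 to 7.16 RPKM. It was followed by fbxb-67 (4.98 RPKM), fbxb-41 (4.69), fbxb-103 (4.64), fbxb-17 (4.32) and fbxb-54 (3.56), and each of these overlapped the next in its range over the libraries. The span of fbxb-103 overlaps that of bcmo-2, and that of fbxc-47 overlaps M02B7.7, so reads of these pairs may be shared.

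**Figure D1:**
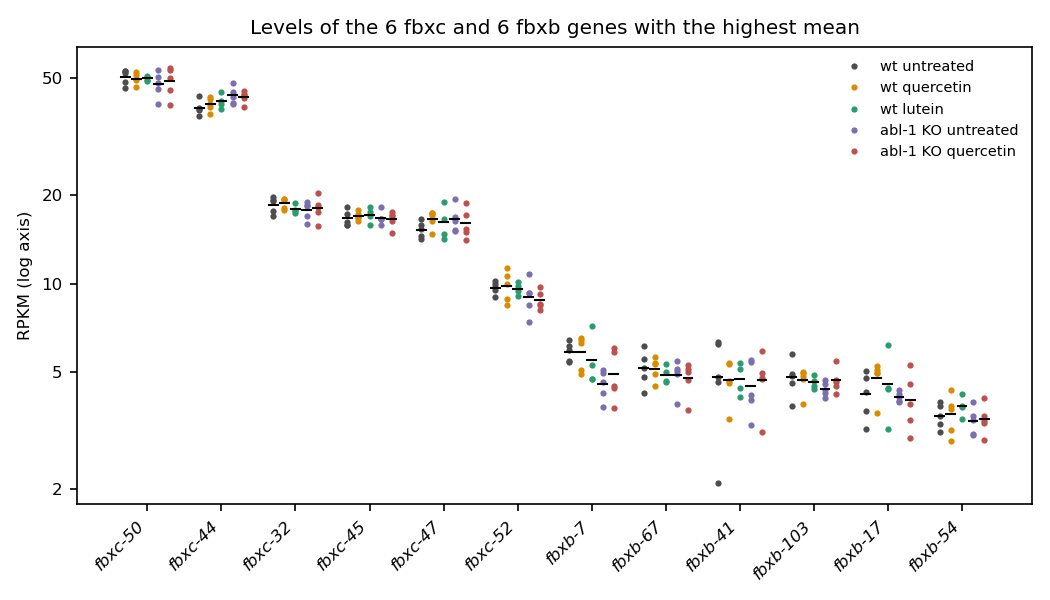
Level in RPKM (log axis) of the 6 fbxc and the 6 fbxb genes with the highest mean, in order of their mean over 24 libraries. Each point is a library, coloured by group, and each black bar is a group mean. Groups overlap within every gene except for fbxb-7 between both untreated groups, and fbxb-41 has 1 point far below the rest of its group, 2.10 RPKM in wt untreated replicate 5.

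The 5 most abundant fbxc genes varied little between libraries. The coefficient of variation over all 24 libraries was 5.11% for fbxc-45, 6.21% for fbxc-32, 6.42% for fbxc-44, 7.35% for fbxc-50 and 9.55% for fbxc-47, and 9 tested members were under 10%. The median over the tested members was 22.9%, and over all genes tested 10.1%. Other fbxc genes above 5 RPKM varied more, with 25.5% for fbxc-51 (mean 9.33 RPKM), 15.6% for fbxc-28 (6.03 RPKM) and 12.5% for fbxc-36 (6.76 RPKM), while fbxc-52 (9.38 RPKM) was at 9.63%. The members with the largest SD of log2(RPKM + 0.5) were fbxb-92 (0.34), fbxb-41 (0.31) and fbxb-91 (0.30) among fbxb genes and fbxc-12 (0.38), fbxc-5 (0.36) and fbxc-4 (0.35) among fbxc genes. The genes fbxb-90, fbxb-91 and fbxb-92 are neighbours on the minus strand of chromosome II, within 3746428 to 3750785, with means of 1.96, 3.26 and 0.68 RPKM.

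All 3 of these fbxc genes belong to an array of 10 fbxc genes on chromosome IV, from 891239 to 911196. In it genes of 1376 bp (fbxc-1, fbxc-2, fbxc-4, fbxc-5 and fbxc-3, in this order) alternate with genes of 1781 or 1782 bp (fbxc-9, fbxc-10, fbxc-11, fbxc-12 and fbxc-8), and gene starts of a kind recur every 4152 or 4153 bp. The 5 genes of 1376 bp had nearly the same mean, between 2.73 and 2.87 RPKM, and fbxc-4 and fbxc-5, the ones with an exon length in the annotation used, both had 1128 bp. Among the other 5, fbxc-8 and fbxc-12 both had an exon length of 1413 bp. Of these 5, 4 had means between 0.356 and 0.388 RPKM and fbxc-12 had 1.21 RPKM. In 9 libraries at least 2 genes of the longer kind held the same value, equal to 5 digits, and in 4 libraries at least 2 of the shorter kind did. No source used here says how reads that map to several copies were counted, so values of single copies are uncertain. The sum over the 5 genes of 1376 bp was 15.2 ± 3.67 RPKM (SD, n = 5) in wt untreated, 15.1 ± 2.33 (n = 5) in wt quercetin, 14.1 ± 0.95 (n = 4) in wt lutein, 13.5 ± 3.52 (n = 5) in abl-1 KO untreated and 12.1 ± 2.78 (n = 5) in abl-1 KO quercetin. These sums overlapped between all groups.

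Levels of the members varied together from library to library, across the groups. For each library, the deviation of each tested member from its own mean over 24 libraries was taken on the log2(RPKM + 0.5) scale, and the median over the 124 members was formed. It was -0.36 in wt untreated replicate 5, -0.26 in abl-1 KO quercetin replicate 5 and -0.20 in abl-1 KO untreated replicate 5, against -0.02 in wt quercetin replicate 5. In the other 20 libraries it lay between -0.14 (abl-1 KO untreated replicate 4) and 0.17 (wt quercetin replicate 2). Lutein has no replicate 5. Of the 124 members, 48 had their lowest value in wt untreated replicate 5 (38.7%, beside 9.87% of all genes tested) and 79 in a replicate 5 library (63.7%, beside 23.0%). The summed level of the fbxb genes was 104 RPKM in wt untreated replicate 5 and between 149 and 164 RPKM in the other 4 libraries of that group. The sum of the fbxc genes was 201 RPKM there and between 227 and 233 RPKM in the other 4. The labels give no batch, extraction date or sequencing run.

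**Figure D2:**
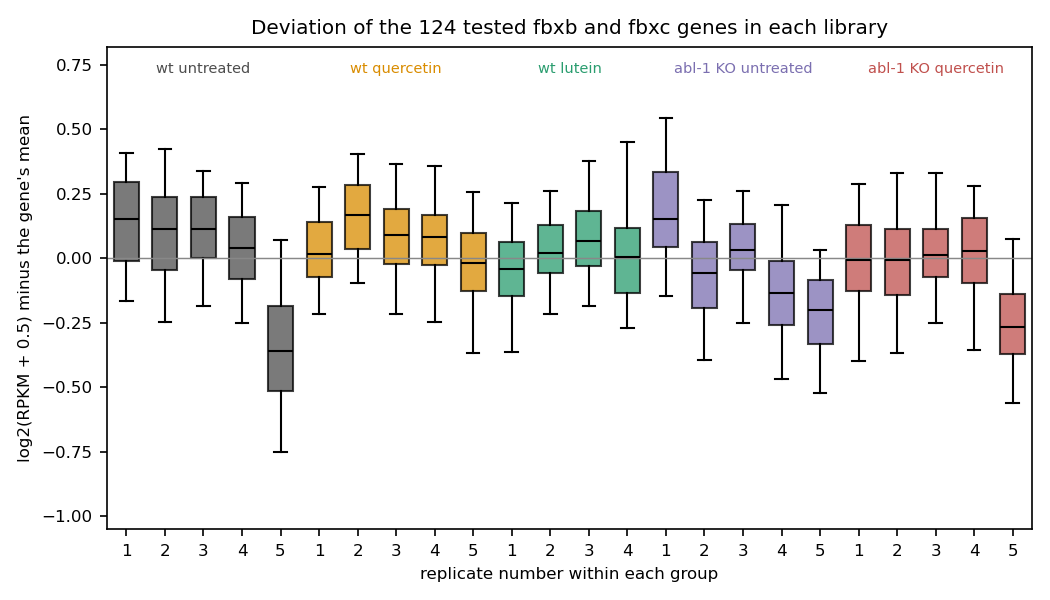
Deviation of each of the 124 tested members from its mean over 24 libraries, on the log2(RPKM + 0.5) scale, by library. Boxes give the quartiles, black lines the medians and whiskers the 5th and 95th percentiles over genes. The medians of 3 replicate 5 libraries, -0.36, -0.20 and -0.26, are the lowest of the 24.

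As a description of this shared movement, the correlation between pairs of tested members over the 24 libraries had a median Pearson r of 0.29, with 0.32 among fbxb genes and 0.24 among fbxc genes. The same measure was 0.19 among the 79 fbxa genes and 0.17 among 33 bath genes, which encode MATH-BTB proteins, the substrate receptors of another cullin. Pairs from 1 cluster had a median r of 0.41 (311 pairs) and other pairs 0.29 (7315 pairs). All these values share the same libraries and their depth. Without the 4 replicate 5 libraries the median r of the members was 0.15, beside 0.20 for fbxa and 0.14 for bath genes, so the order of members and fbxa turned. It was 0.24 for the members without wt untreated replicate 5 alone. Taken as deviations from each group's mean it was 0.31.

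Members differed in how far they followed the others. The correlation of each member with the median deviation of the other tested members was above 0.5 for 80 of the 124, and below 0 for 8. It was highest for fbxb-104 (0.90), fbxb-75 (0.89) and fbxb-41 (0.86), and these genes were named for this value after it was seen, as is fbxc-42 below. In wt untreated fbxb-41 was at 6.35, 6.23, 4.83, 4.63 and 2.10 RPKM in replicates 1 to 5. It was at 5.51, 4.18, 5.40, 4.02 and 3.29 RPKM in abl-1 KO untreated and at 4.75, 4.95, 5.88, 4.77 and 3.13 RPKM in abl-1 KO quercetin. In each of these groups replicate 5 was the lowest, and these are the groups whose replicate 5 library was low in the members' median deviation. In wt quercetin replicate 5 that median was -0.02. Of the 10 members with a mean of at least 5 RPKM, 3 had an r above 0.5, against 77 of the 114 below 5 RPKM. Among the 10 the value was 0.82 for fbxc-36, 0.63 for fbxc-28, 0.61 for fbxc-51, 0.16 for fbxb-7 and 0.16 for fbxc-45. It was -0.25 for fbxc-50, -0.24 for fbxc-32, -0.14 for fbxc-44, -0.03 for fbxc-52 and 0.01 for fbxc-47. Below 5 RPKM, it was -0.50 for fbxc-42 (mean 4.27 RPKM). In wt untreated replicate 5 fbxc-50 was at 52.8 RPKM, the highest of its group, and fbxc-32 at 19.1 RPKM.

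**Figure D3:**
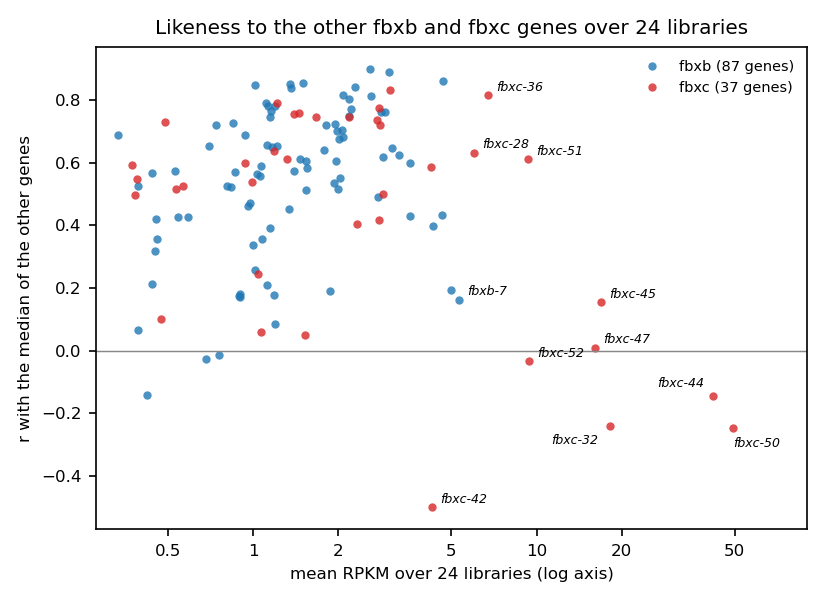
Mean level of each tested member (RPKM, log axis) against its correlation, over 24 libraries, with the median deviation of the other tested members. Each point is a gene, blue for fbxb and red for fbxc. Most genes below 5 RPKM lie above 0.5, while fbxc-32, fbxc-44 and fbxc-50 lie below 0.

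Libraries low in these F-box genes were also low in the median of a list of genes first transcribed in the early embryo, though not in every gene of it. The deviation of the members was set beside that of 12 tested genes of an early embryo list, among them end-1 and end-3, GATA factors that specify the endoderm. Over the 24 libraries Pearson's r was 0.72 and Spearman's rho 0.70, and r was 0.73 without the 2 libraries farthest from the median of the list. It was 0.57 without the 4 replicate 5 libraries and 0.74 with deviations taken within each group. The list's median deviation was -0.23 in wt untreated replicate 5 and between 0.05 and 0.20 in the other 4 libraries of the group. None of the 13 genes on the list was at 0 in every library. Of the 12 genes, 5 had an r above 0.5 with the members' median. In wt untreated replicate 5, 7 of the 12 lay below the other 4 libraries of the group and 5 (elt-7, tbx-37, hlh-25, hlh-27 and sdz-38) did not. Within the list, the single gene most like the members was sdz-28 (r 0.91 with the members' median, named after its value was seen), at 10.7, 9.36, 10.0, 10.1 and 5.28 RPKM in wt untreated replicates 1 to 5, while hlh-27 (r 0.01) and sdz-38 (r 0.13) did not follow them. The sdz genes are named as zygotic transcripts that depend on the maternal factor SKN-1. Among the 12647 other genes tested, 528 (4.17%) had an r above 0.5 with the members' median, and the median over them was 0.09. The highest after sdz-28 were sdz-4 (0.87) and inx-3 (0.86), which encodes a gap junction protein. The same description gave 0.14 for sperm genes, -0.29 for genes of oocytes and the eggshell, -0.05 for germ line genes, 0.25 for the intestine, 0.05 for neurons, 0.22 for body wall muscle and -0.05 for hypodermis and molting. Several of these depended on the setting. Under quantile normalization sperm genes were at -0.49, oocyte and eggshell genes at 0.19, germ line genes at 0.41 and the intestine at -0.11, and with deviations taken within each group oocyte and eggshell genes were at -0.53, germ line genes at -0.46 and the intestine at 0.45. The number of embryos in each pool was not recorded in the labels, and its part in these levels was not tested.

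**Figure D4:**
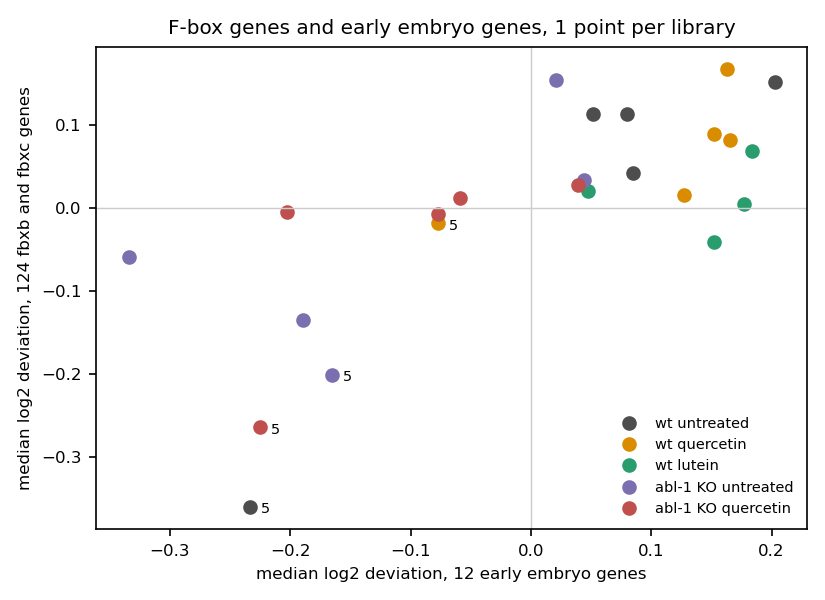
Median deviation of the 124 tested members against that of the 12 tested early embryo genes, both on the log2(RPKM + 0.5) scale, with 1 point per library, coloured by group. The digit 5 marks the replicate 5 libraries, 3 of which hold the lowest values on the vertical axis (-0.36, -0.26 and -0.20).

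No member passed the main test, which took no account of the replicate numbers, in any of the 6 comparisons. In limma on log2(RPKM + 0.5) across all 12771 genes, with Benjamini-Hochberg adjustment, an adjusted p of at most 0.05 counted as a call. For quercetin in wt, 0 of 124 members were called beside 0% of all genes, and 3 had an unadjusted p of at most 0.05 beside 1.35% of all genes. For lutein in wt the values were 0 members beside 0%, and 0 at the unadjusted threshold beside 1.64%. For abl-1 KO against wt, both untreated, 0 members were called beside 0.478% of all genes (61 genes), and 7 lay at the unadjusted threshold beside 11.1%. For quercetin in abl-1 KO there were 0 beside 0%, and 2 beside 1.82%. For abl-1 KO against wt, both on quercetin, there were 0 beside 0.485% (62 genes), and 7 beside 8.18%. For the change in the quercetin effect from wt to abl-1 KO there were 0 beside 0%, and 1 beside 1.59%. The standard error of a member's log2 fold change was 0.05 to 0.25, with a median of 0.15, beside a median of 0.08 over all genes. Of the sperm genes none was called. All 31 tested lay above 0 for quercetin in wt (median 0.80) and in abl-1 KO (1.21). The same held for abl-1 KO against wt untreated (0.76) and on quercetin (1.13). For lutein in wt 28 of the 31 lay above 0 (0.27). For the change in the quercetin effect 30 of these sperm genes did (0.35). Their summed level was 4.76 to 115 RPKM in wt untreated, 8.46 to 346 in wt quercetin, 20.0 to 133 in wt lutein, 12.4 to 638 in abl-1 KO untreated and 18.9 to 454 in abl-1 KO quercetin, and 1 of the 38 genes was at 0 throughout. The comparisons share libraries, so their fold changes are not independent of one another.

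**Figure D5:**
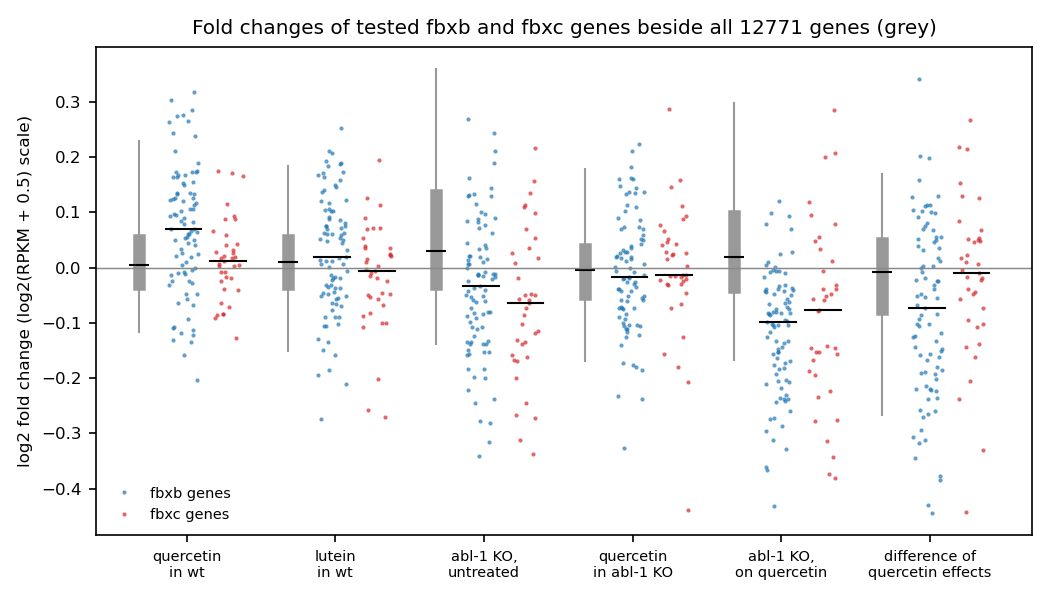
Log2 fold change on the log2(RPKM + 0.5) scale for the 6 comparisons, with 1 point per tested gene, blue for 87 fbxb and red for 37 fbxc genes, and black bars for their medians. Grey bars give the quartiles, grey lines the 5th to 95th percentiles and black ticks the medians of all 12771 genes. In abl-1 KO against wt on quercetin, 77 of 87 fbxb genes and 27 of 37 fbxc genes lie below 0.

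Quercetin in wt worms moved no member beyond the adjusted threshold. The median log2 fold change of the members was 0.05, beside 0.01 over all genes, and 39 of 124 lay below 0 (31.5%, beside 45.9% of all genes). Without wt untreated replicate 5, 79 lay below 0 and the median was -0.03, so the direction rested on that library, and under quantile normalization 62 lay below 0. The smallest p belonged to fbxb-24 (chromosome III from 11908960 to 11909948, overlapping the gene faah-4). It was at 2.34, 2.53, 2.60, 2.83 and 2.33 RPKM in wt untreated and at 3.05, 3.64, 3.03, 2.84 and 2.88 RPKM in wt quercetin. Its groups did not overlap, and it was the only member higher without overlap (beside 0.204% of all genes), at a log2 fold change of 0.24 ± 0.11 (SE), an adjusted p of 1.00 and an exact permutation p of 0.00794, the smallest that 5 against 5 libraries can give. Next were fbxb-90 (log2 fold change 0.27 ± 0.13, exact permutation p = 0.0238) and fbxb-59 (0.32 ± 0.15, exact permutation p = 0.0476), whose groups overlapped and whose adjusted p was also 1.00. In the abl-1 KO strain fbxb-24 was at 2.84 ± 0.22 RPKM untreated and 2.72 ± 0.60 on quercetin (SD, n = 5 each).

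No member was called for lutein, and none had groups that did not overlap. The median was 0.01 over the members and 0.01 over all genes, and 56 of 124 members lay below 0 (45.2%, beside 42.9%). Without wt untreated replicate 5 the count was 82 and the median -0.07. The smallest p values belonged to fbxb-105 (1.61 ± 0.20 RPKM, n = 4, with lutein and 1.30 ± 0.36, n = 5, untreated, SD; exact permutation p = 0.183), fbxb-48 (exact permutation p = 0.262) and fbxb-101 (exact permutation p = 0.143). All 3 had overlapping groups and an adjusted p of 1.00. For fbxb-105 the lowest untreated value, 0.707 RPKM, was that of replicate 5.

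Between the untreated strains 80 of the 124 tested members lay lower in abl-1 KO, a count that turned on single libraries, and none passed the test. The median was -0.05, beside 0.03 over all genes, and the 80 below 0 were 64.5%, beside 37.8% of all genes. Of the fbxb genes 55 of 87 lay below 0 and of the fbxc genes 25 of 37. Without wt untreated replicate 5 the count was 101 and the median -0.14. Without wt untreated replicate 1 they were 62 and -0.0015, and without abl-1 KO untreated replicate 5 they were 65 and -0.01. In the same comparison 10 of 12 early embryo genes lay below 0, with a median of -0.11, and their part in the members' values was not tested. The smallest p belonged to fbxc-28 (chromosome II from 923821 to 925196, in the cluster of 20). It was at 7.38, 7.58, 6.58, 7.28 and 4.66 RPKM in wt untreated and at 5.34, 5.06, 6.07, 4.66 and 5.09 RPKM in abl-1 KO untreated. The groups overlapped only through wt replicate 5, and the log2 fold change was -0.31 ± 0.11 (SE) with an adjusted p of 0.268 in limma and an exact permutation p of 0.0556. Without that library it was -0.43 with an adjusted p of 0.0261, the only member called on leaving out any single library.

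The 2 next members of that comparison pointed in opposite directions. The gene fbxb-7 was at 5.40, 5.45, 6.42, 5.96 and 6.15 RPKM in wt untreated and at 4.25, 5.10, 4.62, 4.95 and 3.81 RPKM in abl-1 KO untreated. All 5 abl-1 KO values lay below all 5 wt values, the only member lower without overlap (beside 0.532% of all genes), with a log2 fold change of -0.34 ± 0.12 (SE), an adjusted p of 0.292 in limma and an exact permutation p of 0.00794. On quercetin fbxb-7 was at 5.86 ± 0.78 RPKM in wt and 4.91 ± 0.99 RPKM in the abl-1 KO strain (SD, n = 5 each), and these groups overlapped. The abundant fbxc-44 was at 39.5, 37.1, 39.4, 43.6 and 38.8 RPKM in wt untreated and at 41.1, 44.9, 43.2, 48.2 and 40.7 RPKM in abl-1 KO untreated. Here 2 of 5 abl-1 KO values exceeded all wt values, with a log2 fold change of 0.13 ± 0.05, an adjusted p of 0.334 in limma and an exact permutation p of 0.0556. Both tests took no account of the replicate numbers. With the numbers as a block, the adjusted p of fbxc-44 in limma was 0.0427. On quercetin fbxc-44 was at 40.8 ± 2.06 RPKM in wt and 43.1 ± 2.08 in abl-1 KO (SD, n = 5 each).

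With quercetin in abl-1 KO worms the members lay on both sides of 0, and no member had groups that did not overlap. The median was -0.014, beside -0.004 over all genes, and 67 of 124 lay below 0 (beside 52.9% of all genes). This count was 41 without abl-1 KO untreated replicate 1 and 44 without abl-1 KO quercetin replicate 5, which turned the sign of the median to 0.05 and 0.04. The member with the smallest p was fbxb-68, at 0.796, 0.891, 1.13, 0.863 and 0.932 RPKM untreated and 0.563, 0.381, 0.695, 1.12 and 0.524 RPKM on quercetin. It was below all untreated values in 4 of 5 quercetin libraries, with a log2 fold change of -0.33 ± 0.12 (SE), an adjusted p of 1.00 in limma and an exact permutation p of 0.0714. The next were fbxc-5, a copy of the array on chromosome IV (-0.44 ± 0.21, exact permutation p = 0.151), and fbxc-43 (0.29 ± 0.17, exact permutation p = 0.167), both with overlapping groups.

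On quercetin most members lay lower in abl-1 KO than in wt, none past the test. The median was -0.10, beside 0.02 over all genes, and 104 of 124 members lay below 0 (83.9%, beside 41.5%). Without abl-1 KO quercetin replicate 5 the count was 84 and the median -0.06, and without the replicate 5 libraries of all groups they were 89 and -0.08. In the same comparison 11 of 12 early embryo genes lay below 0, with a median of -0.23, against 36 of 79 fbxa genes, with a median of 0.03. All 12 tested members of the second largest cluster, on chromosome II from 1676388 to 1725693, lay below 0. This was not particular to that cluster. All 6 tested members of the cluster on chromosome V from 19288755 to 19330757 lay below 0, as did all 4 on chromosome III from 140072 to 146469. In the largest cluster 11 of 15 did. The smallest p belonged to fbxc-22 of the second largest cluster. It was at 1.10, 1.15, 1.11, 1.06 and 1.16 RPKM in wt quercetin and at 0.875, 0.553, 0.723, 0.844 and 0.757 RPKM in abl-1 KO quercetin. These groups did not overlap, and it was the only member lower without overlap (beside 0.587% of all genes), with a log2 fold change of -0.37 ± 0.11 (SE), an adjusted p of 0.236 in limma and an exact permutation p of 0.00794.

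The 2 next members overlapped between the groups in 1 abl-1 KO library each. The gene fbxb-49 was at 2.25, 1.89, 2.37, 1.94 and 2.19 RPKM in wt quercetin and at 1.22, 1.11, 1.69, 1.93 and 1.84 RPKM in abl-1 KO quercetin, a log2 fold change of -0.37 ± 0.12 (SE; adjusted p = 0.387 in limma, exact permutation p = 0.0159). The gene fbxb-118 was at 0.945, 0.850, 1.35, 1.29 and 1.19 RPKM in wt quercetin and at 0.599, 0.558, 0.826, 0.884 and 0.653 RPKM in abl-1 KO quercetin, a log2 fold change of -0.43 ± 0.15 (SE; adjusted p = 0.429 in limma, exact permutation p = 0.0159). Between the untreated strains fbxb-49 had a log2 fold change of -0.28 and an adjusted p of 0.421.

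The quercetin effect was also compared between the strains. The median difference, abl-1 KO minus wt, was -0.05 over the members and -0.01 over all genes, and 77 of 124 lay below 0 (62.1%, beside 54.1%). Without wt untreated replicate 5 the count was 56 and the median 0.03. The smallest p values were those of fbxb-24 (-0.32 ± 0.15, SE), fbxb-72 (-0.43 ± 0.23) and fbxb-91 (-0.44 ± 0.26), each with an adjusted p of 1.00 in limma. For fbxb-72 the mean level went from 1.08 ± 0.34 to 1.43 ± 0.31 RPKM with quercetin in wt, and in abl-1 KO from 1.17 ± 0.18 to 1.06 ± 0.35 RPKM (SD, 5 libraries a group), and the groups overlapped in both strains.

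The partners of F-box proteins were measured in the same libraries. Of 20 skr genes, which encode the Skp1-related adaptors, 18 were tested and 0 passed limma's adjusted threshold in any comparison. At an unadjusted p of at most 0.05 there were 6 between the untreated strains (beside 11.1% of all genes) and 6 between the strains on quercetin (beside 8.18%). The skr genes followed the members over the 24 libraries, with an r of 0.73 and a rho of 0.76 between the median deviations. This r was 0.59 with deviations taken within each group, 0.62 without the replicate 5 libraries and 0.83 under quantile normalization. Other lists followed the members less. Over the 24 libraries the r was 0.44 for bath genes and 0.11 for fbxa genes. It was 0.13 for cullins and RING partners and -0.01 for other named F-box genes. Without the replicate 5 libraries these values were -0.01, -0.25, -0.09 and -0.36, in the same order. No gene passed among 8 cullins and RING partners, 11 of 13 neddylation and COP9 signalosome genes or 10 other named F-box genes such as sel-10 and lin-23. None passed among 33 of 37 bath genes, 5 of 10 genes listed for the intracellular pathogen response and its ubiquitin ligase, or any of the tissue lists. Between the untreated strains the counts of these lists at the unadjusted threshold were 2 of 8, 3 of 11, 2 of 10, 1 of 33 and 2 of 5, beside 11.1% of all genes. In the fbxa family 62 of 79 tested genes lay above 0 between the untreated strains and 17 below it, where 37.8% of all genes lay below. The fbxa median was 0.10, on the same side of 0 as that of all genes (0.03) and on the other side from that of the fbxb and fbxc genes. Within this family fbxa-192 was lower in abl-1 KO, by a log2 fold change of -0.63 ± 0.06 untreated (SE; adjusted p = 4.18e-07 in limma) and -0.62 ± 0.06 on quercetin (adjusted p = 5.55e-07). A second, fbxa-74, was higher in untreated abl-1 KO (0.50 ± 0.11, adjusted p = 0.0388) and had 0.15 ± 0.11 on quercetin (adjusted p = 0.735).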

How the data were processed

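Whole-worm RNA of 24 libraries in 5 groups was sequenced as single reads on an Illumina HiSeq system after stranded mRNA library preparation. According to the methods, the replicates were biological. The deposited values are RPKM, which the authors made by trimming and mapping the reads to WBcel235 with CLC Genomics Workbench; the submitters' processing notes name bcl2fastq 2.20.0.422. How reads with several best matches were assigned is not stated in the sources. No counts were analysed here. The depth of each library was taken from the smallest unit by which low values differ. At the depth chosen, 53.2% to 60.9% of low values lay within 0.1 of a whole read. The median of this share over all depths tried was 15.2% to 17.6%, and these estimates entered no test.

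Genes with at least 0.5 RPKM in at least 4 libraries (12771) were fitted with limma 3.58.1 in R 4.3.3 on log2(RPKM + 0.5), with a mean-variance trend and all 24 libraries in 1 model of 5 group means. P-values were adjusted by Benjamini-Hochberg over all genes tested. Fold changes on this scale understate those of genes near 0.5 RPKM. Single genes were also tested by exact two-sided permutation of libraries. Positions were taken by gene name from the WBcel235 annotation (144 members from Ensembl and 10 from RefSeq). The fit was tested on simulated data. Named genes were the 6 fbxb and 6 fbxc genes of highest mean, the 3 members of smallest p per comparison, the 3 per family of largest SD and any called member. From other lists only called genes were named, and the text says where a further name was picked by its value. The members, the lists and these rules were chosen with earlier results of these data known. Alternatives were other scalings, filters and pseudocounts, library weights, a replicate block, only the groups compared and leaving out libraries. 1 gene of the fbxb naming pattern is not reported here. No sequences were used.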

Additional observations from a re-analysis of the deposited data

Results flagged for a closer look

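In 160 combinations of a named gene or family sum with a group, 6 had a library whose gap to its nearest neighbour was large for the group's range by Dixon's criterion. Chance gives about 1 in 20. In wt untreated replicate 5 the fbxb genes summed to 104 RPKM (nearest 149), the fbxc genes to 201 RPKM (nearest 227), and fbxc-4, a copy of the chromosome IV array, was at 1.35 RPKM (nearest 3.24). In wt quercetin replicate 1 fbxb-17 was at 3.62 RPKM (nearest 4.95) and fbxb-103 at 3.91 RPKM (nearest 4.73). In wt quercetin replicate 2 fbxb-24 was at 3.64 RPKM (nearest 3.05), above the other libraries of its group.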

How the results depend on the processing

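In none of the alternatives was a member called, with 2 exceptions, both between the untreated strains, where the lowest and highest counts on leaving out single libraries were 0 and 1. These were fbxc-28 without wt untreated replicate 5 and, with the replicate number as a block, 1 member, fbxc-44 (log2 fold change 0.13, adjusted p = 0.0427 in limma). The block raised the calls over all genes from 61 to 466 between the untreated strains and from 62 to 252 on quercetin, and changed no other call of a member. Same-numbered libraries had a median r of 0.32 in their deviations from the group means (-0.61 to 0.67, 46 pairs), against -0.07 for other numbers. Of the 24 libraries, 15 were most like one of their own number. The numbers thus carried some shared structure, though they did not pair the libraries throughout, and the main tests took no account of it. For quercetin in wt the count of members below 0 was 62 under quantile normalization, 74 without the replicate 5 libraries of all groups (chosen after seeing the data) and 27 to 79 on leaving out single libraries, against 39. For quercetin in abl-1 KO it was 41 to 84 on leaving out single libraries, against 67. Between the strains, quantile normalization gave 110 of 124 members below 0 untreated and 116 on quercetin, with medians of -0.17 and -0.17, while all genes had medians of -0.01 and -0.01. With only the groups compared, 39 and 41 genes were called between the strains, and 37 on quercetin without the replicate 5 libraries. Quercetin in wt gave 1 called gene, no member, without a filter. The 18 fold changes of single members named for their p kept their direction in all 403 refits. The agreement with the early embryo list was an r of 0.88 under quantile normalization and between 0.57 and 0.74 in the other settings run. A typical member rested on 53.17 estimated reads per library, which limits the precision of its values.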
